A study of Mus musculus with 3 samples.

Results

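The 10 genes described here, of cytokine and growth hormone signalling, were followed in calf muscle carrying a tamoxifen-controlled form of the growth-promoting kinase Akt. They were the SOCS proteins Socs2, Socs3 and Cish, the transcription factors Stat3 and Stat5a, and the receptor genes Il6ra, Il6st, Lifr, Osmr and Ghr. All probe sets whose symbol in the platform's annotation was one of these names were taken, 31 of the 45101 probe sets in the table, for 10 of 18193 annotated genes. Gastrocnemius RNA was measured on 3 Affymetrix Mouse 430 2.0 arrays, 1 each for tamoxifen 48 h, tamoxifen 24 h and oil 24 h, and each array held RNA pooled from 3 to 4 mice. Every mouse, the oil controls included, was of strain C57BL/CD1 and genotype Akt_Cre transgenic, and carried Akt fused to an oestrogen-binding domain in skeletal muscle only, which tamoxifen stabilises. The promoter behind the fusion, the age of the mice and the part played by Cre are not given in the sources used here. An oil array at 48 h and mice lacking the fusion were not part of the data analysed here, so time, tamoxifen itself and Akt cannot be told apart at 48 h, nor tamoxifen itself and Akt at 24 h.

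Cytokines of the interleukin 6 family act through the shared chain gp130 (Il6st). They also bind another chain, such as the interleukin 6 receptor (Il6ra), the LIF receptor (Lifr) or the oncostatin M receptor (Osmr). The growth hormone receptor (Ghr) pairs with itself. Both kinds of receptor carry Janus kinases, which phosphorylate STAT factors, chiefly Stat3 below gp130 and Stat5a and Stat5b below growth hormone. STATs in turn switch on SOCS genes, whose proteins damp the same receptors: Socs3 binds gp130, and Cish and Socs2 are well known targets of growth hormone through STAT5.

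Each group being a single array, precision is limited by the number of arrays and replicate error cannot be given. No test was possible, and all differences below are descriptions of these arrays. Values are intensities after the arrays were scaled to a common median, and a gene is called higher or lower where its ratio reached 2-fold. A probe set was kept when its mean percentile rank over the arrays was 0.5 or more, which 29 of the 31 probe sets and at least 1 for each of the 10 genes met. Each gene was read on its kept probe set of highest rank, here called the brightest, with the others beside it. Probe sets differ in how strongly they bind, so levels of different genes or probe sets are not compared. The pooled standard deviation of log2 ratios between kept probe sets of the same gene was 0.41 for tamoxifen 48 h over oil, 0.49 for tamoxifen 24 h over oil and 0.44 for tamoxifen 48 h over tamoxifen 24 h. It is a technical yardstick and holds no variation between mice or arrays.

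The SOCS genes of the set were 3 of the 4 genes called against oil at either time. None of 5 other SOCS genes compared was called. Cish was higher at 24 h, as were 2.35% of 11092 genes, and Socs2 was higher at 48 h, as were 3.72%. Socs3 was lower at both times on its brightest probe set, as were 2.48% of genes at 24 h and 2.71% at 48 h. Cish, a SOCS protein that blocks STAT5 docking, read 389.7 at tamoxifen 48 h, 686 at tamoxifen 24 h and 222 on oil (probe set 1448724_at, its only one). The 24 h array was the highest and the oil array the lowest. The ratio to oil was 1.76-fold at 48 h (log2 ratio 0.81) and 3.09-fold at 24 h (log2 ratio 1.63), which placed Cish at rank 57 from the top of 11092 genes at 24 h and rank 692 at 48 h. Its 48 h value was 1.76-fold below its 24 h value (log2 ratio -0.82).

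Socs2, a SOCS protein that limits growth hormone action, read 488 at tamoxifen 48 h, 376 at tamoxifen 24 h and 229 on oil on its brightest probe set (1418507_s_at). A second bright probe set (1449109_at) read 388 at tamoxifen 48 h, 476 at tamoxifen 24 h and 204 on oil. Both tamoxifen arrays therefore lay above oil on both probe sets, while the order of 48 h and 24 h differed between them. The brightest probe set was 2.13-fold above oil at 48 h (log2 ratio 1.09) and 1.64-fold at 24 h (0.71), and the second had log2 ratios of 0.93 at 48 h and 1.22 at 24 h. The 3 dimmer kept probe sets had log2 ratios of 0.27, 1.26 and 1.16 at 48 h and 0.27, -0.01 and 0.99 at 24 h. All 5 kept probe sets were thus above oil at 48 h, and 4 of 5 at 24 h. Among the 184 genes with 5 kept probe sets, 16.3% had all of them above oil at 48 h. The sixth Socs2 probe set was below the filter, at 5.95 for tamoxifen 48 h, 6.71 for tamoxifen 24 h and 7.42 for oil.

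Socs3, the feedback inhibitor that binds gp130, read 33.6 at tamoxifen 48 h, 55.1 at tamoxifen 24 h and 117 on oil on its brightest probe set (1455899_x_at). It was 3.49-fold lower at 48 h (log2 ratio -1.80) and 2.13-fold lower at 24 h (log2 ratio -1.09), and at 48 h it stood at rank 37 from the bottom of 11092 genes. The suffix of this probe set marks probes that may also bind other sequences. The second probe set (1456212_x_at), of the same kind, read 58.9 at tamoxifen 48 h, 41.5 at tamoxifen 24 h and 80.4 on oil, with log2 ratios of -0.45 at 48 h and -0.96 at 24 h. The third (1416576_at), without that suffix, read 26.4 at tamoxifen 48 h, 28.3 at tamoxifen 24 h and 26.55 on oil, which is nearly level. The lower reading of Socs3 was therefore carried by its _x_at probe sets. With the median of its 3 kept probe sets in place of the brightest, the log2 ratio was -0.45 at 48 h and -0.96 at 24 h, and neither reached 2-fold.

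**Figure D1:**
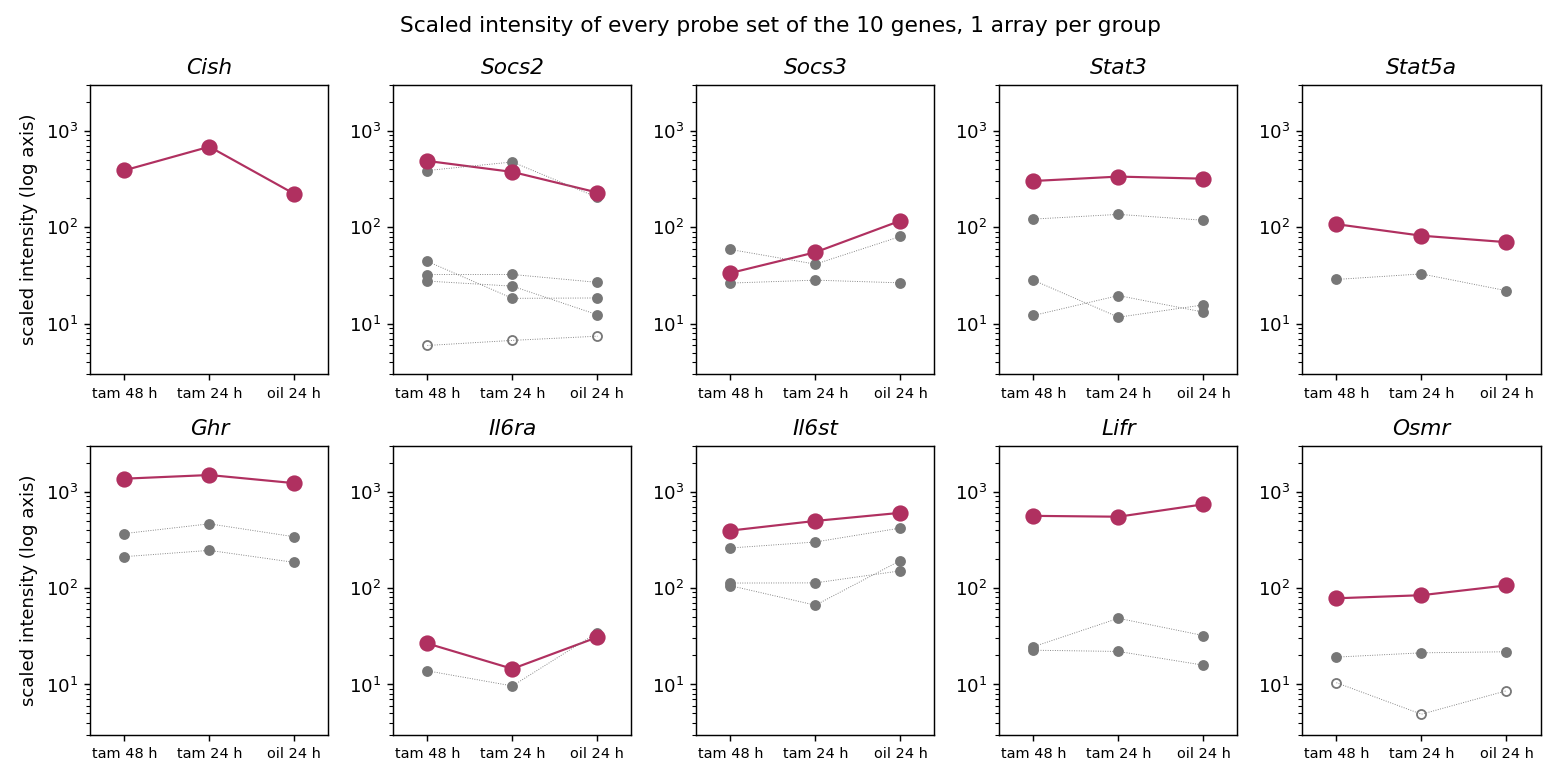
Scaled intensity (log axis) of every probe set of the 10 genes on the tamoxifen 48 h, tamoxifen 24 h and oil 24 h arrays, 1 point per array. Red points mark the brightest kept probe set of each gene, grey points the other kept ones and open points the 2 below the filter. Cish peaks at 686 on the tamoxifen 24 h array, and Socs3 on its brightest probe set is lowest at tamoxifen 48 h, at 33.6 against 117 on oil.

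To show what lies before the starts of the called SOCS and receptor genes, the 250 bases upstream of each RefSeq start (build GRCm38.p6) were searched for TTCNNNGAA, the core of the site that STAT dimers bind, which reads the same on both strands. The promoter table matched 9 of the 10 genes, with 12 windows, and Socs2 was not among them. Of the 12 windows 1 held the motif, that of Socs3, against 7.02% of 32851 windows of all genes. In the Socs3 window the match, TTCTTAGAA, began 154 bases before the start. The windows of the 3 called genes with an entry follow, 5′ to 3′ on the gene's strand, with the match in capitals. They lie at chr11:117969367-117969616 on the minus strand for Socs3, at chr9:107296409-107296658 on the plus strand for Cish and at chr3:89913197-89913446 on the minus strand for Il6ra.
Socs3: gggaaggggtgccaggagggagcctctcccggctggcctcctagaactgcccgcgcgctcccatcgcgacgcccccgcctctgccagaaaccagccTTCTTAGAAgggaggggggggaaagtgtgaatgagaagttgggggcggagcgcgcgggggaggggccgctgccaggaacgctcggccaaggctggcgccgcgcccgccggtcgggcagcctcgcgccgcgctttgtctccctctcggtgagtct
Cish: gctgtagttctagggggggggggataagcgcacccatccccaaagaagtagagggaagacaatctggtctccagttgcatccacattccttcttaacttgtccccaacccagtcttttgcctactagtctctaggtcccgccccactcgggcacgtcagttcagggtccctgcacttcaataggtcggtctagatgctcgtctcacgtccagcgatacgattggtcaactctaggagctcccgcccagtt
Il6ra: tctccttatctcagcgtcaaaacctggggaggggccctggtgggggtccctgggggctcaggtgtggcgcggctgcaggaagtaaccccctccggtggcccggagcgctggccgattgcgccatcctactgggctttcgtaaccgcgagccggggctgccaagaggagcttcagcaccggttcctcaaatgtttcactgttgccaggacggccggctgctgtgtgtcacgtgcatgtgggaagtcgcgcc
The Cish and Il6ra windows have no run of these letters, which says nothing of sites elsewhere or of binding.

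Both STAT genes were within 2-fold of oil at both times. Stat3, the factor below gp130, read 302 at tamoxifen 48 h, 336 at tamoxifen 24 h and 319.6 on oil, a log2 ratio to oil of -0.08 at 48 h and 0.07 at 24 h. Its next probe set read 122 at tamoxifen 48 h, 136 at tamoxifen 24 h and 118 on oil. The 2 dimmest kept probe sets scattered, with log2 ratios of 0.85 and -0.12 at 48 h and -0.43 and 0.57 at 24 h, at intensities no higher than 28.3. Stat5a, a factor below the growth hormone receptor, read 108 at tamoxifen 48 h, 81.9 at tamoxifen 24 h and 70.1 on oil. Oil was the lowest array on both of its kept probe sets, with log2 ratios of 0.62 and 0.39 at 48 h and 0.22 and 0.58 at 24 h, all within 2-fold. Of 2969 genes with 2 kept probe sets, 33.9% had both above oil at 48 h and 32.8% at 24 h. In RefSeq gene order Stat5b, Stat5a and Stat3 follow each other on chromosome 11. Stat5b, no member of the set, lay on the other side of oil: 224 at tamoxifen 48 h, 415 at tamoxifen 24 h and 444 on oil, with log2 ratios of -0.99 and -1.27 on its kept probe sets at 48 h and -0.10 and -0.99 at 24 h.

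Ghr, the growth hormone receptor, read 1364 at tamoxifen 48 h, 1489 at tamoxifen 24 h and 1225.5 on oil on its brightest probe set. Its other probe sets read 368 and 212 at tamoxifen 48 h, 464 and 246 at tamoxifen 24 h, and 340.2 and 185 on oil. All 3 probe sets gave the same order, with the 24 h array highest and oil lowest. The log2 ratios lay between 0.11 and 0.20 at 48 h and between 0.28 and 0.45 at 24 h, none past 2-fold and each smaller than the spread between probe sets of the same gene. Of 1247 genes with 3 kept probe sets, 18.4% had all of them above oil at 24 h and 22.5% at 48 h.

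Il6ra, Il6st, Lifr and Osmr, the 4 receptor chains of the interleukin 6 family in the set, read below oil on their brightest probe sets at both times, and of these Il6ra reached 2-fold, at 24 h. Cntfr, another chain of that family and no member of the set, read on the other side of oil. It was at 48.8 for tamoxifen 48 h, 42.4 for tamoxifen 24 h and 40.1 for oil. Lepr, also no member, read below oil like the 4 chains, at log2 ratios of -0.15 at 48 h and -0.40 at 24 h. The median log2 ratio of the 4 chains was -0.42 at 48 h and -0.38 at 24 h, against 0.01 and 0.04 for all 11092 genes. For 12 other cytokine receptor chains it was -0.21 at 48 h and -0.08 at 24 h, so medians below oil were not particular to the 4. Of all genes, 49.4% were below oil at 48 h and 46.0% at 24 h. Over the 11 kept probe sets of the 4 chains, 10 were below oil at 48 h and 9 at 24 h. Il6st alone had 4 of them, and probe sets of the same gene are not independent. The share of all kept probe sets below oil was not counted. The brightest probe sets of the 4 chains stayed below oil after quantile normalization. Leaving out the scaling moves all ratios of a comparison by the same amount, too small to change these signs, so it is no check.

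Il6st, which encodes gp130, was below oil on every probe set. Its 4 probe sets read 395, 260.5, 113 and 106 at tamoxifen 48 h, 497, 301, 113 and 66.4 at tamoxifen 24 h, and 603, 419.5, 151 and 193 on oil. Oil was the highest array on each of the 4. The log2 ratios lay between -0.87 and -0.42 at 48 h and between -1.54 and -0.28 at 24 h, and the brightest was 1.53-fold below oil at 48 h and 1.21-fold at 24 h. Among 492 genes with 4 kept probe sets, 19.3% had all 4 below oil at 48 h and 14.0% at 24 h.

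Il6ra, the receptor chain for interleukin 6, read 26.6 at tamoxifen 48 h, 14.5 at tamoxifen 24 h and 30.9 on oil (probe set 1422270_a_at). Its other probe set (1452416_at) read 13.9 at tamoxifen 48 h, 9.65 at tamoxifen 24 h and 34.6 on oil. Both had the 24 h array lowest and oil highest. Among 2969 genes with 2 kept probe sets, 27.4% had both below oil at 24 h and 32.2% at 48 h. The brightest was 2.13-fold lower at 24 h (log2 ratio -1.09) and 1.16-fold below oil at 48 h (-0.22), while the other had log2 ratios of -1.84 at 24 h and -1.32 at 48 h. Both probe sets are dim, at mean percentile ranks of 0.590 and 0.530 against the minimum of 0.5. The 24 h calls of Socs3 and Il6ra lay near the rule: without scaling their log2 ratios were -0.9939 and -0.9964, both short of 2-fold, and after quantile normalization Il6ra was at -0.88.

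Lifr and Osmr are neighbours on chromosome 15. Lifr read 561 at tamoxifen 48 h, 549.9 at tamoxifen 24 h and 739 on oil, log2 ratios of -0.40 and -0.43. Its dimmer probe sets disagreed: they read 24.6 and 22.7 at tamoxifen 48 h, 48.6 and 22.0 at tamoxifen 24 h, and 32.2 and 15.8 on oil, so that the median of its 3 probe sets was above oil at 24 h, at a log2 ratio of 0.47. Osmr read 78.3 at tamoxifen 48 h, 84.3 at tamoxifen 24 h and 107 on oil, log2 ratios of -0.44 and -0.34. Its second kept probe set had log2 ratios of -0.18 at 48 h and -0.04 at 24 h, and its remaining probe set, below the filter, read 10.4 at tamoxifen 48 h, 4.91 at tamoxifen 24 h and 8.61 on oil.

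**Figure D2:**
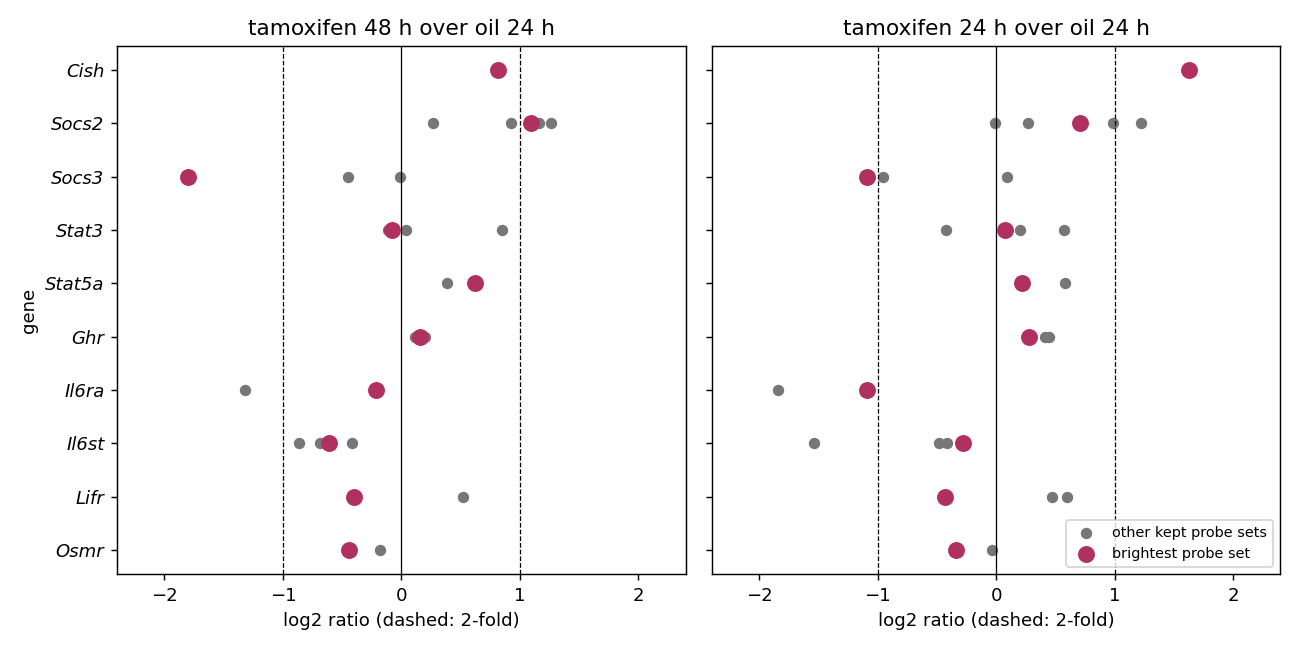
Log2 ratios of tamoxifen 48 h (left) and tamoxifen 24 h (right) over oil 24 h for every kept probe set of the 10 genes, with the brightest in red and dashed lines at 2-fold. All kept probe sets of Il6st lie left of 0 and all of Ghr right of 0 in both panels, while those of Socs3 run from -1.80 to -0.01 at 48 h.

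In all, 1 of the 10 genes was higher at 24 h (Cish), where 2.35% of 11092 genes were, and 2 were lower (Socs3 and Il6ra), where 2.48% were. At 48 h, 1 was higher (Socs2), where 3.72% of all genes were, and 1 was lower (Socs3), where 2.71% were. The median log2 ratio of the 10 genes was -0.15 at 48 h and -0.10 at 24 h, with 4 genes above oil and 6 below at 48 h and 5 on each side at 24 h. Over the 29 kept probe sets, 3 were higher and 2 lower at 48 h, against 3.91% and 3.1% of 19362 kept probe sets with 1 gene, and 2 were higher and 4 lower at 24 h, against 2.45% and 4.19%. Both comparisons use the same oil array, so a stray oil reading would move both.

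Between the tamoxifen arrays no gene of the 10 was 2-fold apart, where 1.8% of all genes were higher and 1.42% lower at 48 h. The widest were Il6ra, at 26.6 for tamoxifen 48 h and 14.5 for tamoxifen 24 h (1.83-fold), and Cish, at 389.7 for tamoxifen 48 h and 686 for tamoxifen 24 h (1.76-fold). Il6ra was thus higher and Cish lower at 48 h than at 24 h, each past the spread between probe sets of 0.44. Socs3 passed it too, at a log2 ratio of -0.71, but its second probe set read the other way, at 0.51. That spread holds no variation between arrays, so passing it does not settle a difference. Single dim probe sets of Socs2 and Stat3 were 2-fold higher at 48 h, at log2 ratios of 1.27 and 1.28, while the 2 brightest probe sets of each gene lay between -0.29 and 0.38. These were 2 of the 29 kept probe sets, against 3.21% of all kept probe sets with 1 gene, and none of the 29 was 2-fold lower, against 1.58%.

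**Figure D3:**
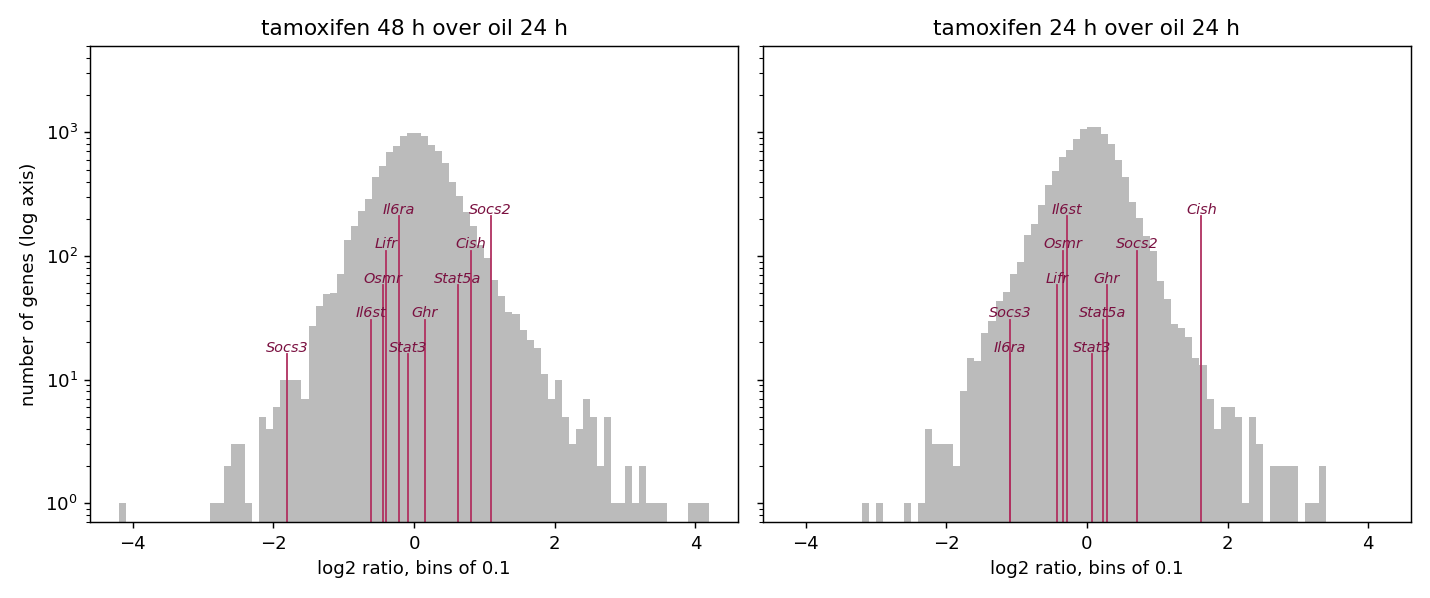
Number of genes (log axis) by log2 ratio in bins of 0.1 for tamoxifen 48 h (left) and tamoxifen 24 h (right) over oil 24 h, 11092 genes, with the 10 genes marked by red lines at their brightest probe set (the height of a line has no meaning). Cish stands in the upper tail at 24 h, at 1.63, and Socs3 in the lower tail at 48 h, at -1.80, while Stat3 and Ghr sit near the centre.

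Other genes of the pathway were taken from lists by role. Jak2, the kinase that growth hormone receptors carry, read 89.0 at tamoxifen 48 h, 111 at tamoxifen 24 h and 208 on oil, 2.33-fold lower at 48 h (log2 ratio -1.22) and 1.86-fold below oil at 24 h. Its other kept probe set had log2 ratios of -1.52 at 48 h and -0.60 at 24 h. Of the 4 Janus kinases compared, 1 was lower at 48 h and none at 24 h, with list medians of -0.37 and -0.15. None of 5 other SOCS genes (Socs1, Socs4, Socs5, Socs6 and Socs7) was 2-fold from oil at either time on its brightest probe set, with medians of -0.02 at 48 h and -0.35 at 24 h. The widest ratio of these was that of Socs1 at 24 h (log2 ratio -0.52), which read 24.9 at tamoxifen 48 h, 13.5 at tamoxifen 24 h and 19.3 on oil. Of 3 other STAT genes compared, none reached 2-fold on its brightest probe set, and Stat5b came closest. None of 9 phosphatases and PIAS inhibitors, which dephosphorylate or bind pathway proteins, reached 2-fold on its brightest probe set, with medians of -0.19 at 48 h and 0.17 at 24 h. Other kept probe sets of Ptpn6 and Ptpn2 reached log2 ratios of 1.57 and 1.38 at 48 h. Pias4 had the widest brightest-probe-set ratio of the list, at 24 h (log2 ratio -0.85), and read 133 at tamoxifen 48 h, 88.4 at tamoxifen 24 h and 159.6 on oil.

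Ligands of the gp130 family were mostly below the filter. Of 7 listed, 2 were compared, and Il6, Il11, Lif and Osm had no kept probe set. Il6 read 3.02 at tamoxifen 48 h, 1.0005 at tamoxifen 24 h and 4.77 on oil, at or near the floor of 4.05. Clcf1, a ligand of the ciliary neurotrophic factor receptor, was 2.42-fold lower at 24 h (10.5 against 25.4 on oil) but its second kept probe set gave a log2 ratio of -0.22, and Ctf1 was within 2-fold. The other receptors of the gp130 and growth hormone families that were compared, Cntfr and Lepr, were within 2-fold on their brightest probe sets, with Cntfr above oil at both times and the lowest ratio among the 3 kept Lepr probe sets at -1.06 at 48 h and -1.11 at 24 h (log2). Of 12 other cytokine receptor chains compared, 2 were higher at 24 h and none at 48 h. Il1r1, the interleukin 1 receptor, read 17.5 at tamoxifen 48 h, 46.6 at tamoxifen 24 h and 20.6 on oil, and Il17ra, an interleukin 17 receptor chain, read 20.6, 39.9 and 15.7 in the same order, each on 1 dim probe set. Their medians were -0.21 at 48 h and -0.08 at 24 h.

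Known responsive genes read on both sides of oil. The lists were used without an expected direction for each gene, so the counts are not a reading of STAT activity. Of 8 genes listed for growth hormone and STAT5, 2 were higher (Igfals and Cdkn1a) and 2 lower (Bcl6 and Pim1) at 24 h, and Pim1 alone was lower at 48 h. Bcl6, a transcriptional repressor, read 213.5 at tamoxifen 48 h, 176 at tamoxifen 24 h and 403 on oil, and its other kept probe set had log2 ratios of -0.43 at 48 h and -0.68 at 24 h. Pim1, a kinase listed for both STATs, read 34.9 at tamoxifen 48 h, 28.3 at tamoxifen 24 h and 76.9 on oil, 2.20-fold lower at 48 h and 2.72-fold lower at 24 h on 1 probe set. Igfals, which carries circulating IGF1, read 19.6 at tamoxifen 48 h, 28.3 at tamoxifen 24 h and 10.2 on oil. Cdkn1a read 211 at tamoxifen 48 h, 660 at tamoxifen 24 h and 148 on oil, 4.46-fold higher at 24 h. Its other kept probe set had log2 ratios of -0.39 at 48 h and 1.54 at 24 h. The medians of this list were -0.19 at 48 h and -0.23 at 24 h. Of 12 STAT3-responsive genes compared, 1 was higher (Lcn2) and 1 lower (Pim1) at 48 h, and 2 were higher (Lcn2 and Il1r1) and 1 lower (Pim1) at 24 h, with medians of -0.15 and 0.17. Lcn2 read 86.1 at tamoxifen 48 h, 129 at tamoxifen 24 h and 17.7 on oil, on 1 probe set. It was 4.85-fold higher at 48 h and 7.26-fold higher at 24 h. Between the tamoxifen arrays, Timp1 was 2.67-fold higher at 48 h, and Cdkn1a and Il1r1 were 3.14-fold and 2.67-fold lower.

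**Figure D4:**
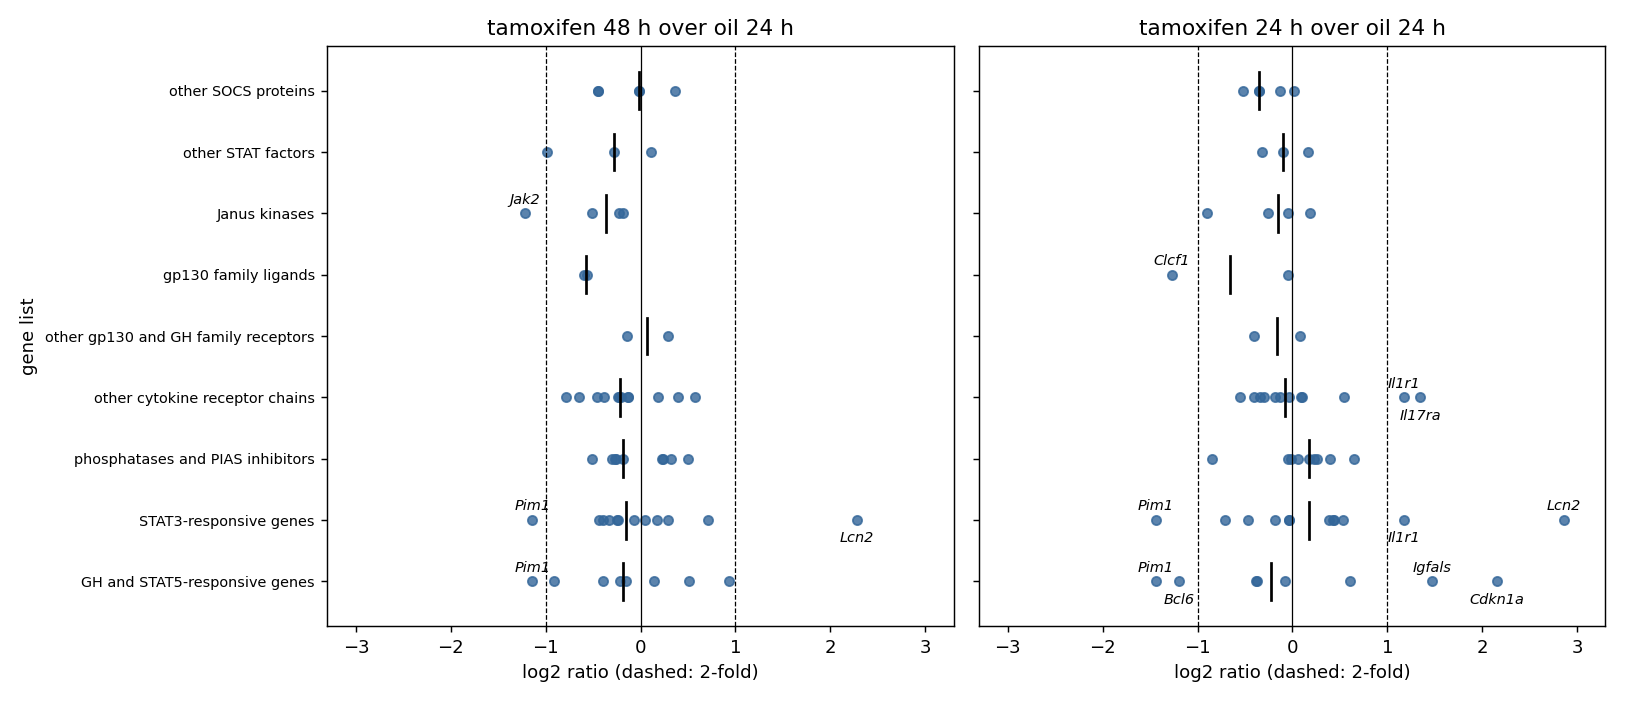
Log2 ratios of tamoxifen 48 h (left) and tamoxifen 24 h (right) over oil 24 h for the compared genes of 9 pathway lists, 1 point per gene, with the list median as a black bar and dashed lines at 2-fold. Jak2 and Pim1 pass 2-fold below oil at 48 h, at -1.22 and -1.14, and Lcn2 passes 2-fold above it, at 2.28. Most other points lie inside the dashed lines.

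The genes with ratios nearest to those of Socs3, the gene of the 10 with the widest ratio, were Glul, Etfbkmt, Khsrp, Fam107a and Pcmtd2, at Euclidean distances of 0.14 to 0.33 in the pair of log2 ratios to oil. They were taken from 4917 genes with 2 or more kept probe sets, Socs3 itself and clone or predicted gene names left out, 11 of which lay within 0.5. With 3 arrays that share one control, and with Socs3 read on a probe set that 1416576_at did not follow, this describes these arrays only.

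Markers of the labelled tissue were bright on all 3 arrays: the 5 muscle fibre genes (Ckm, Acta1, Mb, Myh4 and Tnnt3) had a summed intensity of 46623 at tamoxifen 48 h, 45027 at tamoxifen 24 h and 46736 on oil. Receptors and SOCS genes are also made by blood and stromal cells, and in bulk RNA fewer cells of a type and less RNA per cell cannot be told apart. Of 5 neutrophil markers 3 were compared, with a summed intensity of 64.5 at tamoxifen 48 h, 125 at tamoxifen 24 h and 184 on oil, and S100a8 and S100a9 were lower at 48 h. The neutrophil marker Csf3r, below the filter, ran the other way, at 21.9 for tamoxifen 48 h, 12.2 for tamoxifen 24 h and 5.31 for oil, and Ly6g was not analysed here. The order of the summed neutrophil markers was lowest at 48 h and highest on oil. The summed macrophage markers, given next, had the same order, as did the brightest probe sets of Socs3, Il6st and Osmr. The part of these cells in the 3 genes was not tested. Jak1, Jak2, Tyk2 and Stat5b, among others, had this order too on their brightest probe sets. The share of all genes with this order was not counted, so sharing it does not link these genes to those cells. Il6st probe set 1437303_at and Socs3 probe set 1456212_x_at did not share the order, being lowest at 24 h, and Socs3 probe set 1416576_at was nearly level. The 5 macrophage markers summed to 879 at tamoxifen 48 h, 948 at tamoxifen 24 h and 1036 on oil, of which Csf1r made up 558, 586 and 642 in the same order. Among them Cd163 was lower at 48 h, while Cd68 and Itgam read above oil, at log2 ratios of 0.58 and 0.80 at 48 h. The 4 fibroblast markers summed to 6484 at tamoxifen 48 h, 6464 at tamoxifen 24 h and 7417 on oil, with Col1a1 higher at 48 h. Endothelial markers summed to 514 at tamoxifen 48 h, 668 at tamoxifen 24 h and 612 on oil, and the 2 adipocyte markers compared to 519, 758 and 603 in the same order, with Cidec 2.15-fold higher at 24 h. Of 3 satellite cell markers, Cdh15 was 3.46-fold higher at 48 h and 2.38-fold higher at 24 h, and Pax7 and Myf5 were within 2-fold. None of the T and B cell markers with a probe set passed the filter.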

How the data were processed

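Gastrocnemius RNA pools on 3 Affymetrix Mouse 430 2.0 arrays were compared, 1 array per group. The authors deposited a linear intensity for every probe set on each array; the sources used here do not give how they summarised, background-corrected and scaled it. RNA was extracted with Trizol and cleaned on RNeasy columns, per the labels' protocols. The deposited medians were 13.8 for tamoxifen 48 h, 13.2 for tamoxifen 24 h and 15.2 for oil.

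Of 45101 probe sets, 64 controls were set aside, and 34945 of the rest had 1 gene in the platform annotation, 932 several and 9160 none. Symbols were updated through Entrez identifiers to RefSeq (GRCm38.p6). Probe sets with a mean percentile rank of 0.5 or more were kept (21804, 19362 of them with 1 gene, for 11092 genes). Each array was brought to a common median over these, by factors of 1.05 for tamoxifen 48 h, 0.944 for tamoxifen 24 h and 1.01 for oil. A floor at the 25th percentile (4.05) was set and log2 taken, in Python 3.11.15 with numpy 2.4.6 and pandas 2.3.3, and the calculation was tested on simulated data. No test between groups was made, since each group is 1 array. Alternatives were other scalings, filters, floors, the median of a gene's kept probe sets, and a 1.5-fold rule. All 10 genes and every probe set of theirs are named; of the pathway lists, genes past 2-fold or else the widest. Genes, lists and rules were chosen with earlier results of these data known.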

Additional observations from a re-analysis of the deposited data

How the results depend on the processing

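Of 204 ratios of single genes recomputed under 7 alternatives, 200 moved by less than the spread between probe sets or not at all, and none past 2-fold changed sign. The other 4 moved under the median of the kept probe sets: to 0.47 for Lifr at 24 h, -0.45 for Socs3 and -0.77 for Il6ra at 48 h over oil, and -0.10 for Socs3 at 48 h over 24 h. The alternative filters and floors returned the main ratio for every gene they held, so the ratios under them are no check on stability. Leaving out the scaling moved the ratios of all 10 genes by the same amount within a comparison, less than the spread. Those ratios are thus no such check either, though calls near 2-fold could change. Only quantile normalization and the median of the kept probe sets could move single ratios past the spread. Cish at 24 h stayed past 2-fold without scaling and after quantile normalization, at log2 ratios of 1.72 and 1.53. It has 1 probe set, so the median of the kept probe sets could not move it. Socs2 at 48 h was at 1.03 and 1.01 in the same order, and the median of its kept probe sets was the value of its brightest, 1.09. The number of genes lower at 24 h, 2, became 0 without scaling, 1 after quantile normalization, 1 with the median of the kept probe sets, and 0 with the filter at rank 0.75, which drops Socs3 and Il6ra and leaves 8 genes. The number lower at 48 h, 1, became 0 with the median of the kept probe sets and with the rank 0.75 filter. The median log2 ratio of the genes became 0.27 at 24 h with the median of the kept probe sets, and 0.15 at 24 h and 0.0373 at 48 h with the rank 0.75 filter; between the tamoxifen arrays it was -0.27 without scaling, where the median of all genes was -0.18. With a 1.5-fold rule, 2 were higher and 2 lower at 24 h, against 9.57% and 9.02% of all genes. At 48 h, 3 were higher and 2 lower, against 11.7% and 10.7%. For 48 h against 24 h, 1 was higher and 2 lower, against 6.91% and 5.84%. Causes beyond these constructions were not tested. No paired analysis was possible because each group is 1 array. Dim probe sets, those of Il6ra and Socs3 above all, limit what signal over background can show.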
